A study of Homo sapiens with 4 samples.

Results

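Peak summits at transcription starts and in 5′-untranslated regions (5′-UTRs) of protein-coding genes were described in HITS-CLIP libraries of the poly(A) polymerase Star-PAP. A summit was a member when it lay on an autosome within 1000 bp of the annotated 5′ end of a protein-coding gene, or in a 5′-UTR of a protein-coding transcript, and in neither a coding sequence nor a 3′-UTR. By this rule, 14767 of the 965423 autosomal summits in 3 lists were members, of 1031599 summits in all. The control list gave 1935 members, the siStar-PAP list 7022 and the siRBM10 list 5810. The rule used positions and annotation alone, and the score of a summit played no part in it. The label says starts, yet the same rule also takes up exons of 5′-UTRs far from the 5′ end of the gene record, and their part is given separately.

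The study mapped RNA regions crosslinked to Star-PAP in HEK293 cells, an immortalised human embryonic kidney line, and asked how they depend on Star-PAP and on its partner RBM10. All cells received UV at 400 mJ per cm2, and complexes were pulled down with an antibody to Star-PAP. The siStar-PAP library came from cells treated with siRNA against Star-PAP and the siRBM10 library from cells treated with siRNA against RBM10. The label of the control library names a Star-PAP pulldown and no siRNA, although the treatment text shared by all 4 samples describes an siRNA transfection with harvest after 48 h. An IgG pulldown was the fourth sample, and it entered only as the reference against which all 3 lists were called. Each condition had 1 library, so no difference between conditions has a replicate check and no p-value is given. The lists give no read totals, so the depth behind them is unknown, and the intervals below cover the counting error of summits only. A list of summits does not measure the abundance of an RNA.

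Star-PAP, encoded by TUT1, belongs to the non-canonical poly(A) polymerases and takes part in cleavage and polyadenylation at the 3′-end of selected pre-mRNAs. RBM10 is an RNA-binding protein of the nucleus best known for its role in alternative splicing. The start of a gene is the opposite end of the transcript. RNA polymerase II begins there, the first exon usually carries the 5′-UTR that ribosomes scan before the start codon, and in the human genome many starts lie in CpG islands, stretches rich in G, C and CpG dinucleotides. Short non-coding RNAs are also transcribed beside some protein-coding starts.

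At the start of TUT1 itself, on the minus strand of chromosome 11 with its 5′ end at 62359109, the control and siStar-PAP lists held 0 summits within 1000 bp. The siRBM10 list held 1, at 62359336, which is 227 bp upstream of the start, with a score of 2.05. RBM10 lies on the X chromosome and was outside the rule. The start of the depleted gene therefore gives no check of the siStar-PAP label.

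The reference sequence under the highest-scoring members is shown because these few positions carry the strongest signal at starts and because they differ in base composition. Each window holds 30 nt of hg19 (GRCh37) on the strand of the gene, the summit is base 16, and capitals mark CpG dinucleotides. The first 8 windows are from the 4 genes that were among the 5 highest members in both depletion lists. The ninth is from siRBM10 alone, and the last 3 are the 3 highest of the control list. The windows of SPDYE10 and SNX16 in the control and EGFLAM on siStar-PAP, also among the 5 highest, are not shown.
PARP2, siStar-PAP, chr14:20811485-20811514, plus: tctcagaccttcccaagggacatgggagtg
PARP2, siRBM10, chr14:20811449-20811478, plus: cagggagagccctgttagggcCGcctctgg
CCDC107, siStar-PAP, chr9:35657928-35657957, plus: cCGaggtcCGgggactttcccctaggCGga
CCDC107, siRBM10, chr9:35657909-35657938, plus: tgcaCGtggcactctctgccCGaggtcCGg
NEMF, siStar-PAP, chr14:50320506-50320535, minus: gcCGatCGggtgtcCGcactgagttCGgca
NEMF, siRBM10, chr14:50320514-50320543, minus: tgCGctatgcCGatCGggtgtcCGcactga
GSTA4, siStar-PAP, chr6:52860542-52860571, minus: ggtCGtcctcttCGacCGagCGCGcagctt
GSTA4, siRBM10, chr6:52860482-52860511, minus: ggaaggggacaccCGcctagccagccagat
WDR74, siRBM10, chr11:62609287-62609316, minus: aaggataaggcCGcCGaggCGacCGaagta
SNX32, control, chr11:65602151-65602180, plus: gcatgtgcctgtgtgtgtctgCGcaggtct
FILIP1L, control, chr3:99834216-99834245, minus: ggagtaactcagattcaattttgaatcctc
C2CD2, control, chr21:43374957-43374986, minus: caccatacacactCGcaccatcctgtgcac

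Each score is a p-value of MACS2 on the −log10 scale, so that a higher score is a smaller p-value. Upstream of PARP2, a poly(ADP-ribose) polymerase of DNA repair, the summit had a score of 63.8 on siStar-PAP and 77.8 on siRBM10, the highest of the members of each list. These summits lay 274 and 310 bp upstream of the start, 36 bp from each other, inside the lncRNA ENSG00000259001 on the opposite strand (chr14:20811207-20811844). As background, the gene of the RNA subunit of RNase P is known to lie head to head with PARP2. It was not analysed here, since the annotation used does not list it under its own name.

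Upstream of CCDC107 the scores were 32.5 and 72.9, with summits 344 and 363 bp from the start and 19 bp apart. Both fell inside RMRP (chr9:35657751-35658014, minus strand), the RNA of the RNase MRP ribonucleoprotein. For NEMF, a factor of ribosome-associated quality control, the scores were 28.2 and 37.6, and both summits, 8 bp apart, fell inside RN7SL3 (chr14:50320336-50320632), which belongs to the RNA family of the signal recognition particle. For GSTA4, a glutathione transferase, the scores were 35.4 and 34.8, and both summits, 60 bp apart, fell inside RN7SK (chr6:52860418-52860748), the 7SK RNA that binds the elongation factor P-TEFb. The WDR74 summit on siRBM10 had a score of 15.1 and lay 20 bp from RNU2-2P, annotated as an snRNA gene (chr11:62609091-62609281). The 4 highest depletion members thus sat in or opposite annotated non-coding RNAs and not in the named protein-coding genes' own exons. RN7SL3 has near-identical copies, and since only unique matches were kept, reads that match several copies equally would be left out.

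Small RNA genes, meaning snRNA, snoRNA, scaRNA, rRNA, miRNA, ribozyme, vault and miscellaneous RNA records, lay within 200 bp of 3 control members, 33 siStar-PAP members and 33 siRBM10 members. That was 0.155%, 0.470% and 0.568% of members, beside 0.241%, 0.345% and 0.308% of the shuffled positions that met the same rule. Among members with a score of 10 or more, it held for 0 of 4 in the control, 3 of 4 on siStar-PAP and 4 of 5 on siRBM10. Of the 5 highest control members, SNX32, a sorting nexin, had a summit of score 20.3 lying 861 bp downstream of its start, FILIP1L one of 19.5 lying 873 bp upstream, and C2CD2 one of 13.4 lying 844 bp upstream. Control members also scored 11.6 near SPDYE10, which belongs to a gene family with near-identical copies, and 9.22 at SNX16. The SPDYE10 summit fell in the record of the pseudogene GTF2IP4 and the SNX16 summit in that of the lncRNA LINC02235. Over 200 nt, GC content was 29% at the FILIP1L summit, 48.5% at SNX32, 52% at C2CD2 and SNX16, and 61% at SPDYE10. Among the 5 highest members on siStar-PAP it ran from 57.5% at EGFLAM to 63% at NEMF. On siRBM10 it was 41.5% at WDR74, and the others ran from 62.5% at CCDC107 to 66% at PARP2. FILIP1L was thus the lowest of these. The control and depletion values overlapped only through SPDYE10 and WDR74, and the other control values all lay below the other depletion values. None of these 5 control members lay within 200 bp of a small RNA gene.

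Members made up 0.505% of the control summits (95% Wilson interval 0.483 to 0.528), 2.29% of the siStar-PAP summits (2.24 to 2.35) and 2.10% of the siRBM10 summits (2.05 to 2.16). The same numbers of positions were shuffled 20 times within the determined bases of each chromosome. The shuffled share was 1.28% for the control, with the 20 sets between 1.24% and 1.31%, 1.56% for siStar-PAP (1.53 to 1.6) and 1.55% for siRBM10 (1.51 to 1.58). Starts and 5′-UTRs thus held 0.396 times the shuffled number of summits in the control, 1.47 times on siStar-PAP and 1.36 times on siRBM10. With summits of p at most 0.01 alone the values were 0.611, 1.135 and 1.02, so the excess on siRBM10 was all but gone. The control list, the longest of the 3, had the fewest members. The intervals cover the counting of summits within 1 library each and do not measure a difference between conditions.

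The control lay below shuffled positions on all 22 autosomes. Its fold ran from 0.276 on chromosome 14 to 0.630 on chromosome 19, with a median of 0.368 and 0 chromosomes above 1. On siStar-PAP the fold ran from 0.975 on chromosome 22 to 2.21 on chromosome 13 and exceeded 1 on 21 chromosomes. On siRBM10 it ran from 1.08 on chromosome 22 to 2.10 on chromosome 13, above 1 on 22.

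The profile around the start was read from members within 1000 bp, each given to its nearest start. The control held 908 upstream and 691 downstream, siStar-PAP 3028 and 3087, and siRBM10 2360 and 2623. The downstream share was 43.2% in the control (40.8 to 45.7), 50.5% on siStar-PAP (49.2 to 51.7) and 52.6% on siRBM10 (51.3 to 54.0). Shuffled positions gave 47.8%, 47.7% and 47.6%, a share below an even split because coding sequence downstream of the start is left out. The control was thus tilted upstream of the shuffled sets, whose lowest value was 46.0%, and both depletion lists were tilted downstream of theirs, whose highest values were 49.0% and 49.1%. With summits of p at most 0.01 alone the downstream shares of 48.3% on siStar-PAP and 48.6% on siRBM10 lay inside those shuffled ranges, so that tilt was lost.

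**Figure D1:**
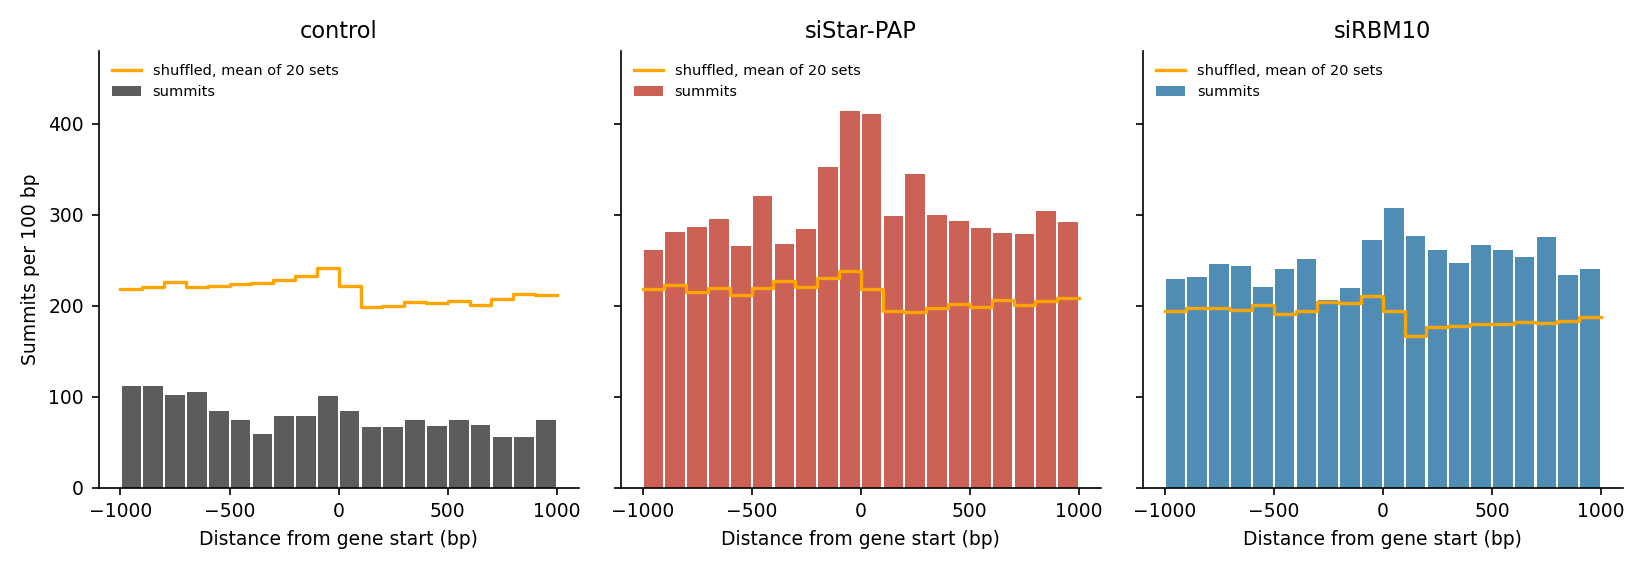
Number of summits per 100 bp (vertical axis) by distance from the nearest gene start in bp (horizontal axis, negative upstream) in the control, siStar-PAP and siRBM10 lists; bars are summits outside coding sequence and 3′-UTRs, and the orange line is the mean of 20 shuffled sets. The control bars stay between 56 and 112, below the line in every bin, whereas siStar-PAP rises to 414 and 410 in the bins on either side of the start.

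In bins of 100 bp, the control held between 56 and 112 summits where shuffled positions gave between 199 and 242. Its fold was lowest, at 0.262, from 400 to 300 bp upstream. On siStar-PAP the counts rose to 414 in the 100 bp before the start and 410 in the 100 bp after it, folds of 1.74 and 1.87 (95% interval 1.70 to 2.06). On siRBM10 the fold between 500 and 300 bp upstream was 1.26 and 1.29 per bin, then 1.01, 1.08 and 1.29 in the 3 bins before the start, 1.58 (1.41 to 1.76) in the first 100 bp downstream and 1.66 (1.47 to 1.87) in the next. Over 250 bp on each side, siStar-PAP gave 1.59 before and 1.75 after the start, and siRBM10 gave 1.16 before and 1.61 after it. Their counting intervals were 1.49 to 1.69 and 1.07 to 1.26 upstream, and 1.64 to 1.87 and 1.5 to 1.74 downstream. With 1 library each, they do not measure a difference between the conditions. The lists carry no strand, so a summit before a start cannot be assigned to the sense or the antisense strand. Tags were extended with a fragment size of 500 for peak calling, which can displace a summit by a few of these bins.

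The shortage of control summits reached far beyond the members. Outside coding sequence and 3′-UTRs, the control fold was 0.342 in the 500 bp upstream and 0.350 in the 500 bp downstream of the start, 0.522 from 4000 to 3500 bp upstream and 0.517 from 3500 to 4000 bp downstream. It then climbed over a short range, to 0.837 at 6000 to 5500 bp upstream and 0.798 at 5500 to 6000 bp downstream. Beyond 50000 bp it was 1.09 upstream and 1.07 downstream. Both depletion lists changed the other way with distance, from 1.75 and 1.61 in the first 250 bp to 0.842 and 0.868 beyond 50000 bp downstream. Starts lay in a control trough about 5000 bp wide on each side, and on a broad rise in the depletion lists. On siStar-PAP the rise peaked on both sides of the start. On siRBM10 it peaked only downstream, with 1.19 in the 500 bp upstream beside 1.24 from 3500 to 3000 bp upstream. These folds are not weighted to GC content.

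**Figure D2:**
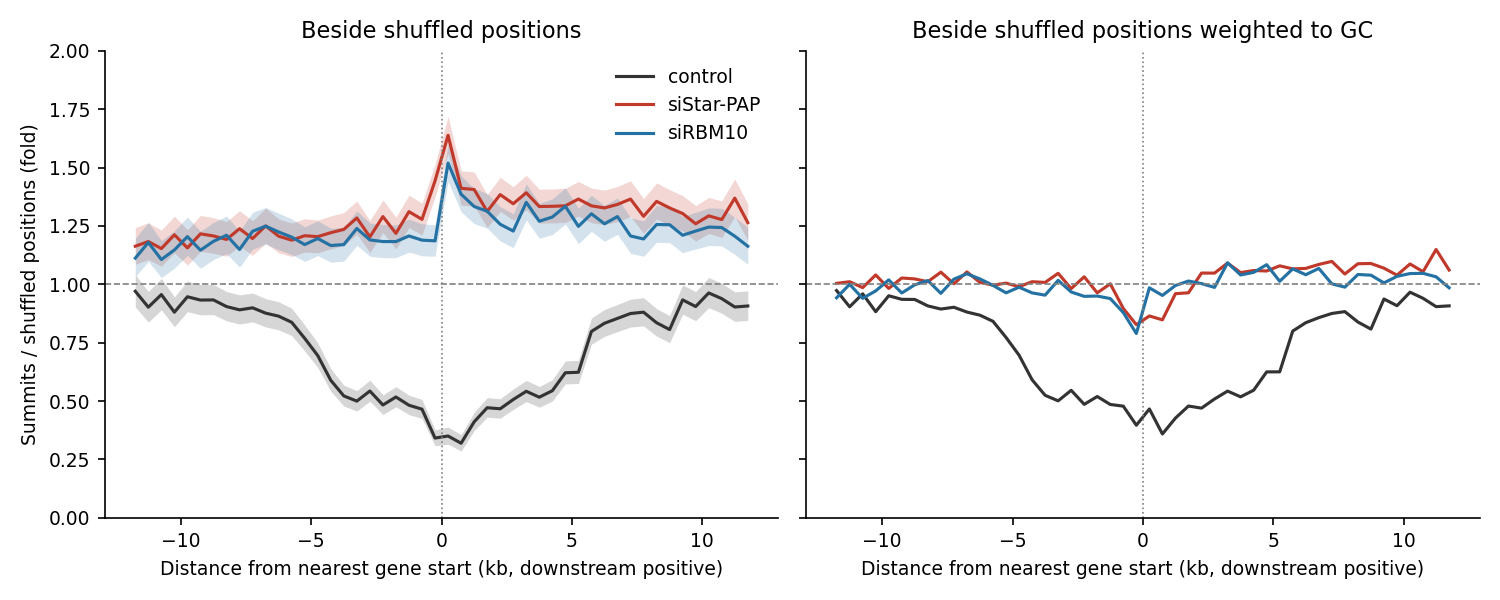
Fold of summits over shuffled positions (vertical axis) per 500 bp by distance from the nearest gene start in kb (horizontal axis, downstream positive), for each list, with 95% counting intervals shaded; the left panel uses shuffled positions as drawn and the right panel shuffled positions weighted to the list's own GC content. The control line dips to 0.319 and the dip remains on the right, while the depletion lines fall below 1 near the start on the right.

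CpG-rich starts were defined as those with at least 55% GC and an observed to expected CpG ratio of at least 0.65 in the 1000 bp centred on them, and 9459 of 19229 autosomal genes met this. Within 1000 bp of CpG-rich starts the control held 365 summits, 0.176 times the shuffled number (0.158 to 0.195). At the other starts it held 1234, 0.550 times (0.519 to 0.581). The trough was deeper at CpG-rich starts out to 5000 bp, with 0.429 against 0.736 from 4000 to 5000 bp downstream, and the classes were close from 6000 to 8000 bp, with 0.839 against 0.882. On siStar-PAP the fold was 1.54 at CpG-rich and 1.35 at other starts, and on siRBM10 it was 1.41 and 1.23.

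The score of the summits separated the profiles. In each list 1 value is by far the commonest score, 1.33 in the control, 2.92 on siStar-PAP and 3.25 on siRBM10. It was held by 63.3% of the control summits that were no members but by 37.4% of the members. On siStar-PAP it was held by 22.6% and 3.57%, and on siRBM10 by 22.6% and 4.22%. Members had median scores of 2.21 in the control, 2.15 on siStar-PAP and 2.24 on siRBM10, beside 1.33, 2.64 and 2.83 for the other summits, so members scored above the rest of the control list and below the rest of both depletion lists.

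**Figure D3:**
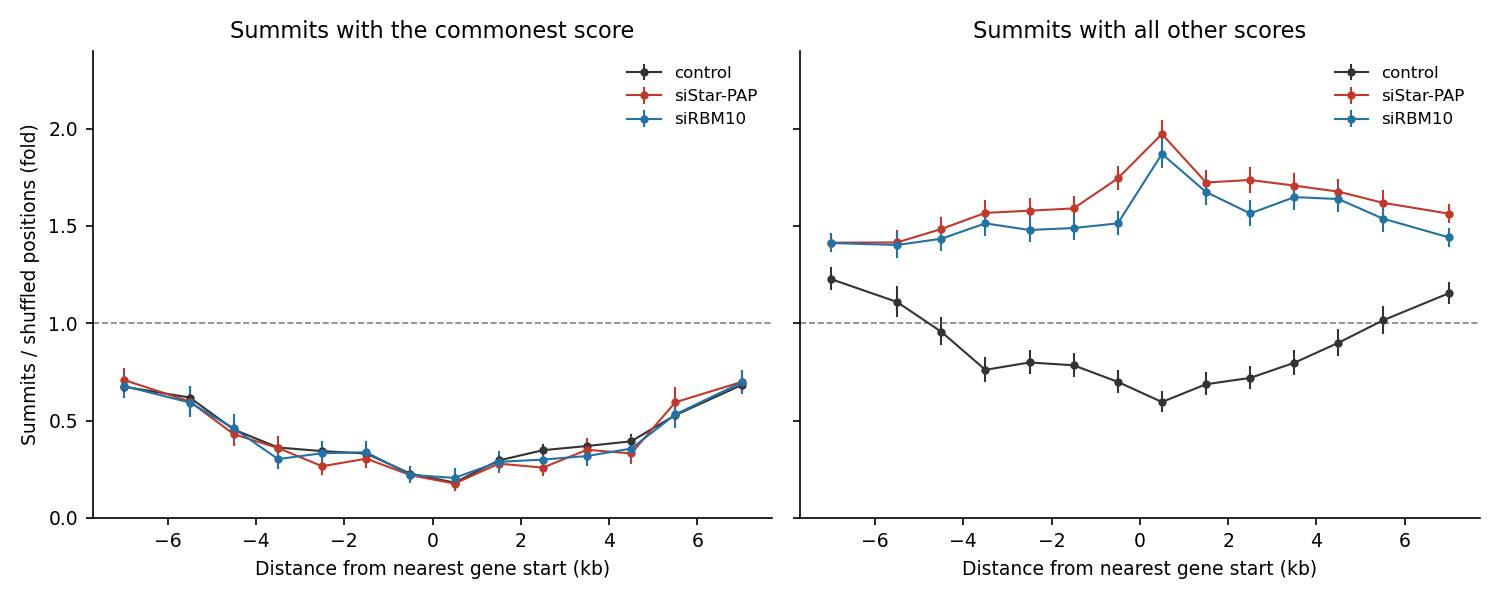
Fold of summits over shuffled positions (vertical axis) by distance from the nearest gene start in kb (horizontal axis, downstream positive), for summits with the commonest score of each list (left) and with all other scores (right), each scaled to its own number in the list; points are bins of 1000 or 2000 bp and bars are 95% counting intervals. On the left the 3 lists lie on one another with a low of 0.176 to 0.205 after the start, and on the right the control lies below both depletion lists in every bin and below 1 from 5000 bp upstream to 5000 bp downstream.

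Summits with the commonest score were rare near starts in all 3 lists to a like extent. Within 1000 bp of the start they reached 0.205 times the shuffled number in the control (0.188 to 0.223), 0.199 on siStar-PAP (0.171 to 0.229) and 0.213 on siRBM10 (0.183 to 0.247). All 3 rose again between 4000 and 6000 bp, from 0.393, 0.331 and 0.356 at 4000 to 5000 bp downstream to 0.528, 0.594 and 0.531 at 5000 to 6000 bp. Summits with any other score differed between the lists, with 0.649 times the shuffled number in the control (0.610 to 0.690), 1.85 on siStar-PAP (1.81 to 1.90) and 1.68 on siRBM10 (1.64 to 1.73). The low control share therefore combined a trough that the commonest score showed in every list, a larger part of the list at that score, and a smaller number of other summits at starts. What the commonest score stands for was not tested, since tag numbers were not used here.

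Member shares also differed by score within a list, with no single order. On siRBM10, 10.5% of summits scoring under 1.5 were members (9.58 to 11.5), 6.72% from 1.5 to 2, 2.15% from 2 to 3 and 0.904% from 3 to 4, with 1.07% from 4 to 6. The mean GC content over 200 nt of all siRBM10 summits in these bins moved alongside, from 60.7% to 55.5%, 48.2%, 43.7% and 45.9%. In the control the lowest bin had the lowest share, with 0.304% under 1.5 at a mean GC of 38.3%, 1.04% from 1.5 to 2 at 47.6%, 0.742% from 2 to 3 at 43.3% and 1.05% from 3 to 4 at 46.9%. On siStar-PAP the shares were 5.68%, 5.22%, 1.55%, 4.05% and 1.83% over the same bins up to 6, at mean GC contents of 56.6%, 53.9%, 45.5%, 54.4% and 49.8%. The part of GC content in these shares was not tested beyond the GC bins given next.

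GC content differed between the lists over the whole genome, and at starts when all members were taken. The 200 nt around control members had a mean GC content of 49.4% (SD 11.8, n = 1935 summits), below the 53.2% of shuffled members. It was 57.9% on siStar-PAP (SD 11.2, n = 7022) and 56.5% on siRBM10 (SD 11.1, n = 5810), above 54.0% and 53.9% of their shuffled members. Among members of p at most 0.01 the order changed, with 54.1% in the control, above its shuffled members, 56.3% on siStar-PAP, and 53.5% on siRBM10, below its shuffled members and below the control. Over all autosomal summits the means were 40.6%, 47.6% and 47.2%, beside 40.8%, 41.7% and 41.7% for shuffled positions. Windows with 65% GC or more made up 8.99% of control members and 25.6% and 23.8% of the depletion members, against about equal shuffled shares of 21.6%, 22.1% and 22%. Downstream members were more GC-rich than upstream ones in each list, with 51.7% and 48.1% in the control, 60.5% and 55.9% on siStar-PAP, and 59.3% and 54.0% on siRBM10. Shuffled members showed the same, with 56.3% and 50.8%, 57.1% and 51.6%, and 56.9% and 51.6%.

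**Figure D4:**
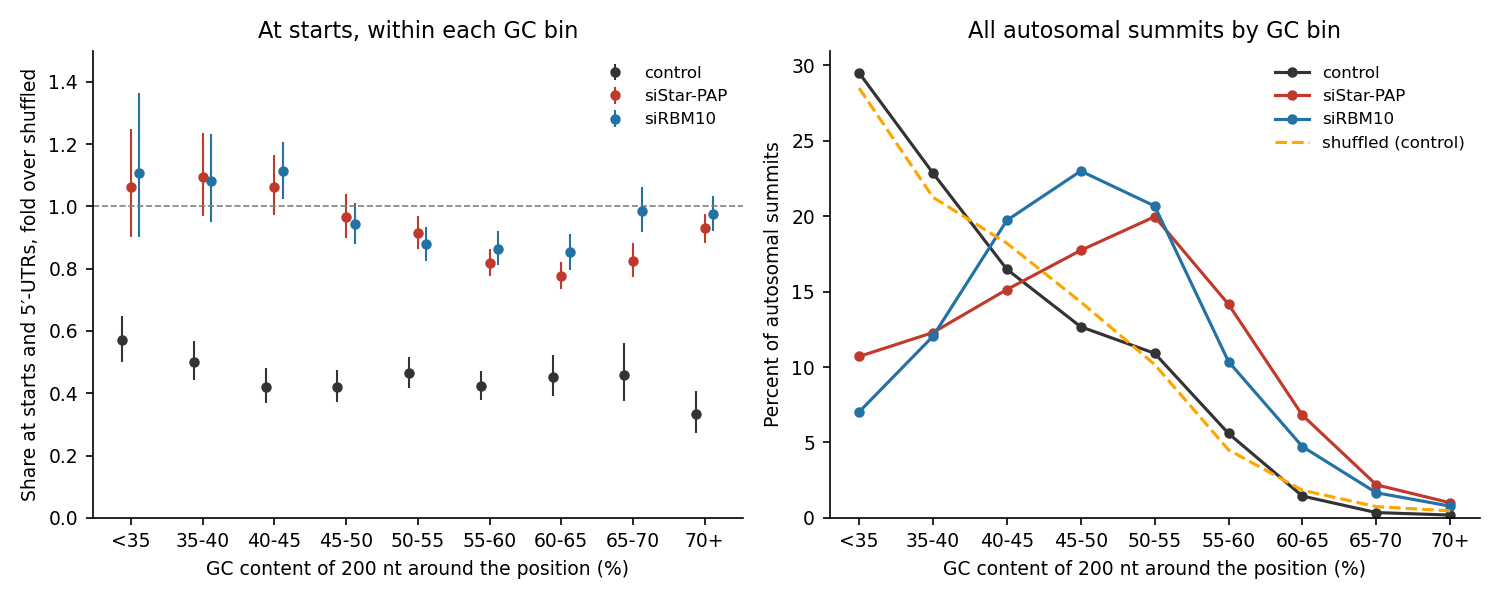
Left, member share as a fold over shuffled positions (vertical axis) within bins of GC content of the surrounding 200 nt in percent (horizontal axis), with 95% intervals; right, percent of all autosomal summits in each bin (vertical axis), with the control's shuffled positions dashed. Within every bin the control stays between 0.334 and 0.570, and the depletion lists stay between 0.776 and 1.11.

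Within bins of equal GC content the control stayed below shuffled positions in all 9 bins, from 0.334 at 70% GC or more to 0.570 under 35%. On siStar-PAP the fold ran from 0.776 at 60 to 65% GC to 1.09 at 35 to 40%, and on siRBM10 from 0.852 at 60 to 65% to 1.11 at 40 to 45%. When shuffled positions were weighted to the GC content of each list's own summits, an alternative chosen after seeing the data, the fold at starts and 5′-UTRs became 0.453 in the control, 0.878 on siStar-PAP and 0.931 on siRBM10. The direction of both depletion lists thus reversed with GC content taken into account, while that of the control did not. In the same weighting the first 250 bp downstream gave 0.904 on siStar-PAP and 1.04 on siRBM10, and the 250 bp upstream gave 0.854 and 0.751. A step across the start on siRBM10 was thus still seen among all summits. These weighted values carry no interval and were not read with p at most 0.01. Displaced summits can also affect bins of this width. The control's lower share than either depletion list held in every GC bin.

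CpG dinucleotides followed the GC content. Members carried 2.76 CpG per 100 nt in the control, 4.98 on siStar-PAP and 4.50 on siRBM10, beside 4.14, 4.18 and 4.16 in shuffled members. The GC box GGGCGG, the core of sites for Sp1-type factors, was searched on both strands in the 200 nt around each position. It occurred in 13.3% of control members, 27.9% of siStar-PAP members and 24.2% of siRBM10 members, against 22.4%, 23.3% and 23.1% of shuffled members and 46.9% of windows of the same length centred on all 19229 starts. The CCAAT box stood in 21.0%, 17.6% and 18% of members, against 21.4%, 21.0% and 20.6% of shuffled members and 25.6% of starts. TATAAA, the core of the TATA box, stood in 11.4% of control members against 9.34% of shuffled ones, in 5.21% and 5.58% of depletion members against 8.67% and 8.94%, and in 7.12% of start windows. The search on both strands counts CCAAT as ATTGG and TATAAA as TTTATA on the other strand, and the motifs do not overlap each other. The shuffled members were not weighted to the GC content of each list, so its part in these motif shares was not tested. These shares are of all members, and those of p at most 0.01 were not read separately.

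The members within 1000 bp were also read over 20 nt on the strand of the gene. The study looked for a motif in windows of that length in 3′-UTRs and coding sequence, and counted runs of U in other regions. Control windows held 25% A, 24.9% C, 25.1% G and 25.1% T, siStar-PAP windows 20.7%, 28.8%, 29.6% and 20.9%, and siRBM10 windows 21.3%, 27.9%, 29.1% and 21.8%. ATA in the DNA letters of the gene strand occurred 1.12 times per 100 nt in the control, 0.540 on siStar-PAP and 0.595 on siRBM10, beside 0.850, 0.837 and 0.836 in shuffled members. A run of 6 T stood in 26 of 1599 control windows (1.63%), 55 of 6115 siStar-PAP windows (0.899%) and 46 of 4983 siRBM10 windows (0.923%), against 1.25%, 1.12% and 1.16% of shuffled windows. ATA and runs of T depend on the A and T content, which was highest in the control windows. The shuffled members were not weighted to it, so the part of base composition in these counts was not tested. Members of p at most 0.01 were not read separately.

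By annotation, 895 control members (46.3%) lay upstream and 517 (26.7%) downstream within 1000 bp and outside 5′-UTRs, 187 (9.66%) in a 5′-UTR within 1000 bp, and 336 (17.4%) in a 5′-UTR farther from any gene record's 5′ end. On siStar-PAP these classes held 2952 (42.0%), 2090 (29.8%), 1073 (15.3%) and 907 (12.9%), and on siRBM10 2297 (39.5%), 1752 (30.2%), 934 (16.1%) and 827 (14.2%). The 5′-UTRs near a start were the class farthest from shuffled positions in all 3 lists, at 0.313 times in the control, 1.87 on siStar-PAP and 1.84 on siRBM10. In the depletion lists the class nearest to shuffled positions was the upstream one, at 1.35 and 1.18. In the control it was that of 5′-UTRs over 1000 bp away, at 0.596. The folds of these classes were not weighted to GC content. Exons of non-coding RNAs overlapped 3.72% of control, 5.95% of siStar-PAP and 6.39% of siRBM10 members, against 5.69%, 5.67% and 5.67% of shuffled members.

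Of 19229 autosomal protein-coding genes, 1593 (8.28%) had a summit within 1000 bp of the start in the control, 5851 (30.4%) on siStar-PAP and 4873 (25.3%) on siRBM10. Shuffled positions gave means of 4155, 4025 and 3662 genes. Most genes had a single summit: 1502 in the control, 5053 on siStar-PAP and 4276 on siRBM10, and 3, 57 and 45 genes had 3 or more. In all 3 lists 154 genes (0.801%) had one, and 9507 genes (49.4%) had none in any. CpG-rich starts had a summit for 4.19% of genes in the control and other starts for 12.3%. In the depletion lists the order was turned, with 32.6% and 28.4% on siStar-PAP and 27.3% and 23.5% on siRBM10. At the 1656 genes whose start has another protein-coding start on the opposite strand within 1000 bp upstream, the shares were 4.95%, 32.8% and 30.6%.

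The lists of genes below were read beside these shares of all genes. Ribosomal proteins of the cytosol, which make up the ribosome with rRNA, had a start summit for 10 of 76 genes in the control (13.2%), 34 on siStar-PAP (44.7%) and 31 on siRBM10 (40.8%). RPLP1, of the ribosomal stalk, had one in every list, and RPL11, RPL12 and RPL13 in both depletion lists only. The RPL12 summits lay 73 bp downstream of its start on siStar-PAP and 57 bp downstream on siRBM10, with scores of 2.06 and 2.73. Translation factors had one for 2, 16 and 13 of 42 genes, such as EIF2S1, the alpha subunit of the factor that brings the initiator tRNA, with 0 in the control, 1 on siStar-PAP 190 bp downstream and 1 on siRBM10 493 bp downstream. ZNF genes, which code for zinc finger proteins, had one for 49 of 496 (9.88%), 194 (39.1%) and 159 (32.1%). ZNF114, ZNF131, ZNF432 and ZNF561 were among the 10 of them with a summit in every list.

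**Figure D5:**
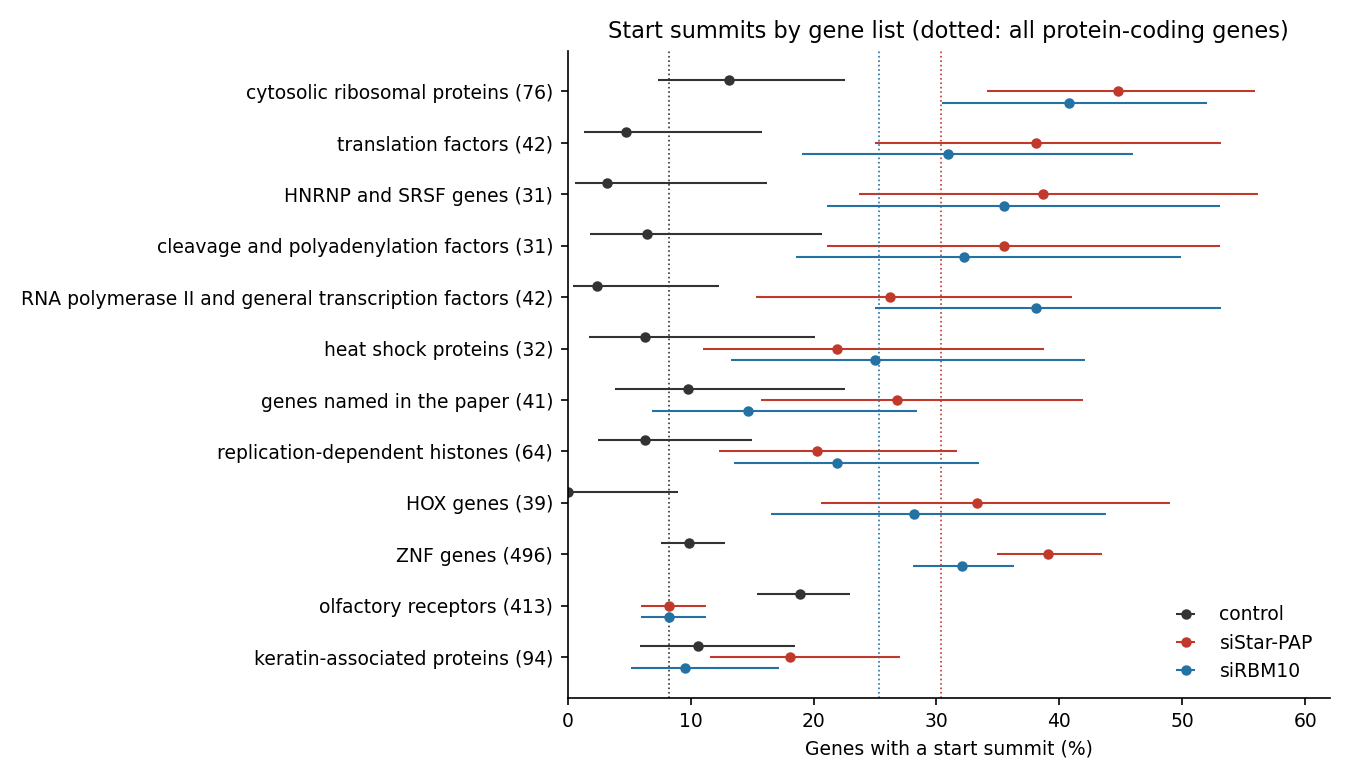
Percent of the genes of each list with a start summit (horizontal axis) in the control, siStar-PAP and siRBM10 lists, with 95% Wilson intervals; gene numbers are in brackets and dotted lines mark the share of all protein-coding genes, 8.28%, 30.4% and 25.3%. Olfactory receptors, at 18.9%, 8.23% and 8.23%, are the list where the control lies highest.

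Factors of RNA processing were close to these figures. The HNRNP and SRSF genes, whose proteins package and splice pre-mRNA, had a start summit for 1, 12 and 11 of 31 genes. HNRNPA1 had one 795 bp downstream of its start on siStar-PAP and one 734 bp downstream on siRBM10. The cleavage and polyadenylation factors, the machinery in which Star-PAP acts, had one for 2 (6.45%), 11 (35.5%) and 10 (32.3%) of 31 genes. CPSF2, a subunit of the cleavage and polyadenylation specificity factor, held 0 in the control, 1 of score 1.73 on siStar-PAP and 1 of score 4.04 on siRBM10, and PCF11, which couples 3′-end processing to termination, held 0, 1 of 1.82 and 1 of 3.97. PIP5K1A, the lipid kinase whose product activates Star-PAP, held 1 in the control and on siStar-PAP and 0 on siRBM10. RNA polymerase II and its general factors had 1 (2.38%), 11 (26.2%) and 16 (38.1%) of 42 genes. POLR2A, the largest subunit, held 0, 2 and 1 summits, all upstream, at 613 and 73 bp on siStar-PAP and 147 bp on siRBM10. Heat shock proteins had 2 (6.25%), 7 (21.9%) and 8 (25%) of 32 genes.

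Gene families outside the general machinery spread more widely. The HOX genes, which pattern the body axis, had 0 of 39 in the control, which allows a share of up to 7.69% by a limit of 3 counts and up to 8.97% by the Wilson bound, beside 8.28% of all genes, 13 (33.3%) on siStar-PAP and 11 (28.2%) on siRBM10. At HOXA2 the summits lay 273 and 287 bp upstream, with scores of 1.5 and 1.85. A single summit served both HOXB3 and HOXB6 in each depletion list, since their starts are close together. The replication-dependent histones, whose mRNAs end without a poly(A) tail, had 4, 13 and 14 of 64 genes. At H1-3 the depletion summits stood 28 bp upstream and 10 bp downstream of the start, with scores of 2.74 and 2.83. Keratin-associated proteins, made in hair, had 10, 17 and 9 of 94 genes.

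Olfactory receptors, the odorant receptors of the nasal epithelium, went the other way. They had a start summit for 78 of 413 genes in the control (18.9%, 15.4 to 22.9), and for 34 (8.23%, 5.95 to 11.3) in each depletion list. Shuffled positions of the control, siStar-PAP and siRBM10 gave 21.4%, 20.9% and 19.1% of all genes without a CpG-rich start. The control share of olfactory receptors was thus high beside other genes, but not above shuffled positions. The median GC content in the 1000 bp around their starts was 39.6%, and 1 of the 413 starts was CpG-rich, against 72.4% of the starts of ribosomal proteins. OR4A15 held 1 summit in every list, at 695 bp upstream with a score of 1.33 in the control, 293 bp upstream with 2.64 on siStar-PAP and 294 bp upstream with 2.77 on siRBM10. The control summits at OR1B1 and OR2A7 had the same score of 1.33, the commonest of that list. The parts of GC content and of the commonest score in these counts were not tested.

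Genes that the study's text named had a start summit for 4, 11 and 6 of 41, and the study chose them partly on these libraries. FEZ1, which takes part in axon growth, held 1 in the control 449 bp upstream of its start, 2 on siStar-PAP and 0 on siRBM10. RRAS, a small GTPase, held 0 in the control, 1 of score 1.5 on siStar-PAP and 1 of score 2.19 on siRBM10. DPH5, of the diphthamide pathway, held 1, 0 and 1. VEGFA, a growth factor of blood vessels, held 0, 2 and 1, with summits 231 bp downstream on siStar-PAP and 237 bp downstream on siRBM10.

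Among the 154 genes with a start summit in every list, 59 (38.3%) had a CpG-rich start, against 49.2% of all genes. Each of the 154 needs a control start summit, and 396 of the 1593 control genes had a CpG-rich start. On siStar-PAP it was 3080 of 5851 genes and on siRBM10 2578 of 4873. The 10 with the highest scores relative to each list's members were RBM42, NLRP2, CADM4, RPLP1, GPR142, ENSG00000285526, TBATA, NFU1, MYO3B and ZNF561. Their summits seldom coincided. At RBM42, an RNA-binding protein gene with its start at 36119932 on chromosome 19, the control summit stood 565 bp upstream with a score of 5.02, the siStar-PAP summit 93 bp downstream with 7.04, and the siRBM10 summits 100 and 452 bp downstream with 1.85 and 3.60. At NLRP2, of the NOD-like receptor family, they stood 995 bp downstream, 655 bp upstream and 407 bp downstream, with scores of 4.25, 3.40 and 3.53.

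RPLP1 and ZNF561 show how the bases under a summit differ from list to list at the same start. Windows are 30 nt of hg19 on the gene strand as before, with CpG in capitals.
RPLP1, control, chr15:69744872-69744901, plus: agCGgagctcctgccaagtcaagcaactca
RPLP1, siStar-PAP, chr15:69745106-69745135, plus: gCGcCGattggtcCGCGtggacacataaga
RPLP1, siRBM10, chr15:69744243-69744272, plus: tgcaaagatgaccatttttgaaggtaggaa
ZNF561, control, chr19:9731974-9732003, minus: tgttctaccCGgtcctaCGtggctgaaact
ZNF561, siStar-PAP, chr19:9731080-9731109, minus: ggcaatctggtgaaaacttgtctctactaa
ZNF561, siRBM10, chr19:9731946-9731975, minus: ctggagcccaCGagcctCGccCGgccagag

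The RPLP1 control summit shown, of score 6.47, lay 266 bp upstream of the start, and a further one of 2.01 lay 323 bp downstream. The siStar-PAP summit, of score 5.05, lay 32 bp upstream, and its window holds 4 CpG and a CCAAT box in reverse. The siRBM10 summit lay 895 bp upstream with the commonest score, 3.25, in a window of 36.7% GC. At ZNF561 the control and siRBM10 summits lay 76 and 48 bp upstream with scores of 3.52 and 4.56, and the siStar-PAP summit shown lay 818 bp downstream with 2.64. At MYO3B, an unconventional myosin, the control and siRBM10 summits lay 872 and 893 bp upstream with scores of 3.36 and 3.25, and the siStar-PAP summit 73 bp upstream with 2.64. At CADM4, a cell adhesion molecule, all 3 lists had a summit near the same place, at 500 bp upstream in the control, 567 bp on siStar-PAP and 484 bp on siRBM10, with scores of 3.69, 3.32 and 2.73. A further CADM4 summit lay 806 bp downstream on siStar-PAP with 1.73. Another lay 616 bp downstream on siRBM10 with 3.53, the higher score of that list at this start.

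The genes with the most start summits over the lists were MAG, PABPC4, FDPS, SLC22A13 and PRICKLE4. MAG, a glycoprotein of myelin, held 2 in the control, 3 on siStar-PAP and 1 on siRBM10. PABPC4, a cytoplasmic poly(A)-binding protein, held 1, 2 and 2, with the control summit 128 bp upstream, and one on siStar-PAP 5 bp downstream of the start with a score of 3.40. FDPS, an enzyme of isoprenoid synthesis, held 0, 2 and 3, the latter with scores between 1.62 and 1.98.

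Sharing between lists was read as a description, since all 3 lists were called against the same IgG library. Of the 1593 genes with a control start summit, 505 (31.7%) also had one on siStar-PAP, beside 30.3% of the genes without, and 395 (24.8%) had one on siRBM10, beside 25.4%. The start classes differed in this. At CpG-rich starts 44.4% of the control genes (39.6 to 49.4) also had one on siStar-PAP, beside 32% of those without, and 32.6% (28.1 to 37.3) on siRBM10, beside 27.0%. At other starts it was 27.5% beside 28.5%, and 22.2% beside 23.7%. Of the 4873 genes with one on siRBM10, 1849 (37.9%) also had one on siStar-PAP, beside 27.9% of the rest. Seen from the 5851 siStar-PAP genes, that was 31.6%. By position, 403 control members (20.8%) had a siStar-PAP summit within 500 bp and 298 (15.4%) a siRBM10 summit, against 12% and 11.1% with the other list's positions shuffled. The control summits that were no members gave 10.7% and 8.76%. In the other direction, a control summit lay within 500 bp of 6.24% of siStar-PAP members and 5.27% of siRBM10 members. Shuffled positions gave 12.2% and 12.3%. A siRBM10 summit lay within 500 bp of 22.1% of siStar-PAP members, against 12.1% shuffled. The shuffled positions were spread over whole chromosomes and lack the other list's excess or shortage at starts. These shares by position therefore cannot tell shared positions from the start shares given above. At the same base, control members met 11 siStar-PAP summits (0.57% of members) and 2 siRBM10 summits (0.10%). The control summits that were no members gave 0.39% and 0.24%, and shuffled positions 0.013% for each list.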

How the data were processed

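Star-PAP HITS-CLIP of HEK293 cells was given as 3 lists, 1 per library. The authors filtered and trimmed reads, collapsed duplicates, mapped them to hg19, kept unique matches of at least 18 nt, merged tags sharing a start, and ran MACS2 against IgG at a fragment size of 500 and p of 0.05. The submitters' processing notes name FastQC 0.72, cutadapt 1.14, BWA 0.7.12 and MACS2. The deposited values are the −log10 of the MACS2 p-value at summits of 1 bp, without strand, width or tag number, although a directional kit was used. The p-value depends on depth, so scores are not comparable between lists. Labels give Oligofectamine as transfection reagent, the study's methods calcium phosphate.

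Summits were annotated without strand with GENCODE release 44 lifted to GRCh37, whose chromosome lengths equal those of hg19, in Python 3.11.15 with numpy 2.4.6, pandas 2.3.3 and scipy 1.17.1. Positions were shuffled 20 times (seed 1) within each chromosome's determined bases. No mappability mask was applied. Motif shares of shuffled members use 5 sets. All 6 steps tested on simulated data recovered the values put in. Shares carry 95% Wilson intervals, and folds by distance from the start 95% Poisson intervals. Folds by GC bin carry the Wilson bounds of the share divided by the shuffled share. With 1 library per condition no test was made.

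Members and gene lists were chosen with earlier results of these data known. Genes were named by rule: the 5 highest members per list, the 10 genes with a start summit in every list and the highest lowest score percentile, the 5 genes with most start summits, up to 4 examples per gene list, and TUT1. Text on RNU2-2P, RMRP, RN7SL3, RN7SK and ENSG00000259001 follows from the highest members. Alternatives were distance, score, transcript 5′ ends, equal numbers of summits, excluded classes and windows.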

Additional observations from a re-analysis of the deposited data

How the results depend on the processing

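No paired analysis was possible because each condition had 1 library. Of the alternatives chosen at the outset, 14 moved a value by less than its counting interval or 1.5 times, 24 moved one by more, and 2 turned a direction, both of them GC content with p at most 0.01. The fold over shuffled positions at 500 bp was 1.57 on siStar-PAP and 1.44 on siRBM10. With summits of p at most 0.01 it was 0.611 in the control, 1.135 on siStar-PAP and 1.02 on siRBM10. This cutoff drops the commonest score from the control list but not from the depletion lists. With the 5′ end of any protein-coding transcript the control gave 0.498, and with 276105 top summits per list it gave 0.448 and siStar-PAP 1.27. Shuffled positions weighted to GC content, chosen after seeing the data, gave 0.453 in the control and turned siStar-PAP to 0.878 and siRBM10 to 0.931.

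The downstream share with coding sequence and 3′-UTRs kept was 48.9% in the control, 54.2% on siStar-PAP and 56.3% on siRBM10, beside 51.2%, 51.0% and 51.0% shuffled. At starts with no other start within 2000 bp it was 49.2% and 51.1% in the depletion lists, and with p at most 0.01 it was 48.3% and 48.6%, inside the ranges of shuffled positions. Mean GC content with p at most 0.01 was 54.1% in the control and 53.5% on siRBM10, each on the other side of its shuffled members at 53.2% and 53.9%, and 56.3% on siStar-PAP. Over 20 nt it was 58.2% on siStar-PAP. Genes with a start summit at 500 bp were 792, 3429 and 2656, and with p at most 0.01 they were 958 in the control and 3802 on siStar-PAP. Within 250 bp, 12.6% of control members had a siStar-PAP and 7.86% a siRBM10 summit. The cause of these moves was not tested.

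Limits are that depth, tag numbers, strand and peak widths are unknown, that summits within 500 bp of a start can be displaced, that uniquely mapped tags miss repeated genes, and that 1 library cannot be told apart from its condition.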
